A study of Arabidopsis thaliana with 104 samples.

Results

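The genes described here take part in making the indole defence compounds camalexin and 4-hydroxyindole-3-carbonyl nitrile in Arabidopsis thaliana. They are CYP71A12 (AT2G30750), CYP71A13 (AT2G30770), PAD3 (AT3G26830), CYP82C2 (AT4G31970) and FOX1 (AT1G26380). They were chosen for their known roles, with earlier results of these data known, and taken by locus ID from a count table of 27206 loci, and all 5 were among the 18926 loci left by a filter on low counts. Both compounds start from tryptophan, which CYP79B2 and CYP79B3 turn into indole-3-acetaldoxime, the point from which indole glucosinolates also branch. CYP71A12 and CYP71A13 are cytochromes P450 that act on this oxime, PAD3 is the cytochrome P450 that closes the camalexin ring, and FOX1 and CYP82C2 are an oxidase and a cytochrome P450 of the cyanogenic branch. Camalexin is the main phytoalexin of Arabidopsis, made on contact with microbes, and the transcription factor WRKY33 is a known activator of its synthesis genes.

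Polyadenylated RNA of whole seedlings was sequenced without strand information and counted per gene. Seedlings were Col-0, the reference accession, or mutants named phr1 and phr1phl1, in which PHR1 or both PHR1 and PHL1, related transcription factors of the phosphate starvation response, are mutated. Which alleles the mutants carry is not stated in the labels. All seedlings grew for 7 days on 1 mM inorganic phosphate (Pi) with 0.5% sucrose and then for 12 days without sucrose on low Pi (50 µM) or on high Pi (625 µM). Plates held no bacteria or a SynCom, short for synthetic community of bacteria. The 12 groups held 10 libraries each for Col-0 and phr1, 2 from each of 5 experiments (A to E), and 6 each for phr1phl1, 2 from each of experiments C, D and E. How many seedlings made up a library is not given. In RNA from whole seedlings, fewer cells of a type and less RNA per cell cannot be told apart.

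Libraries held between 955174 and 9550846 counts (median 4335782). Levels are CPM, counts relative to the library total after TMM scaling, and they are not compared between genes. PHR1 mRNA had a median of 69.1 CPM (43.8 to 86.6) in the 40 Col-0 libraries, 34.1 CPM (19.8 to 53.8) in the 40 phr1 libraries and 37.1 CPM (20.6 to 56.9) in the 24 phr1phl1 libraries. PHL1 mRNA had a median of 12.9 CPM (6.66 to 22.8) in Col-0 and 102 CPM (42.0 to 972) in phr1phl1, where the label names it as mutated. Which part of each gene the alleles affect is not known, so these levels do not check the mutations fully. A total of 4 libraries stood apart, with under 1000000 counts or a residual SD over 0.65 on the log2 scale. They were D1 of phr1 and D1 of phr1phl1 at high Pi without bacteria, D2 of Col-0 at low Pi with SynCom, and E2 of phr1phl1 at low Pi without bacteria.

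CYP71A12 and CYP71A13 lie on the minus strand of chromosome 2, at chr2:13099486-13101371 and chr2:13109909-13111988 of TAIR10.1, each with 4 exons. PAD3 lies on the plus strand at chr3:9887917-9889791 with 2 exons, and CYP82C2 on the plus strand at chr4:15462350-15464563 with 3 exons. FOX1 is a single exon on the minus strand at chr1:9126737-9128568. The coding sequences of CYP71A12 and CYP71A13 were 90.4% identical and shared 0.692% of their 50-base words. Their relative CYP71A18 was 89.8% identical to CYP71A12 and held 2.01% of the words of CYP71A12. CYP82C2 was 93.1% identical to CYP82C3 and 93.0% to CYP82C4, which held 3.47% and 3.25% of its words. FOX1 was 86.1% to 87.8% identical to its 4 close relatives and shared no such word with them. AT2G30766 overlaps CYP71A13 on the other strand, and without strand their reads cannot be told apart; its counts summed to 372 over all libraries, against 4929 for CYP71A13.

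The bases before each gene are shown because WRKY factors bind the W-box, whose core is TTGAC. They come from the RefSeq genome, build TAIR10.1, and are written 5′ to 3′ on the strand of the gene, with TTGAC or its reverse complement GTCAA in capitals. For PAD3 (chr3:9887617-9887916, plus strand), CYP82C2 (chr4:15462050-15462349, plus strand) and FOX1 (chr1:9128569-9128868, minus strand) they are the 300 bases before the annotated start. The annotated models of CYP71A12 and CYP71A13 begin at the start codon, so the 80 bases next to it were left out and 220 bases are shown (chr2:13101452-13101671 and chr2:13112069-13112288, minus strand).
CYP71A12: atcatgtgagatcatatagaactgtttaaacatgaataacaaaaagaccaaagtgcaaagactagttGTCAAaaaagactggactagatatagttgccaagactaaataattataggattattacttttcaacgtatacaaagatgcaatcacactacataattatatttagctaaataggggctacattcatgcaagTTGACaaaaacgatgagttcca
CYP71A13: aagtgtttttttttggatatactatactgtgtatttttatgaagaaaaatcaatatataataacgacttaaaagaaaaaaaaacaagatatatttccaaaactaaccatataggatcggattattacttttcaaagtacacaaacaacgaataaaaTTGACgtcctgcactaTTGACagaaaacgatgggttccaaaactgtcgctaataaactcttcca
PAD3: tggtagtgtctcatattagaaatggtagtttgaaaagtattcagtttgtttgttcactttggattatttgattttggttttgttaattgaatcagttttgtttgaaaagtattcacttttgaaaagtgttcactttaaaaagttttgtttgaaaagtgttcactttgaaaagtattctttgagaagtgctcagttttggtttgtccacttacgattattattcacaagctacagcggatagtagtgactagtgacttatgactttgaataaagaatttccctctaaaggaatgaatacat
CYP82C2: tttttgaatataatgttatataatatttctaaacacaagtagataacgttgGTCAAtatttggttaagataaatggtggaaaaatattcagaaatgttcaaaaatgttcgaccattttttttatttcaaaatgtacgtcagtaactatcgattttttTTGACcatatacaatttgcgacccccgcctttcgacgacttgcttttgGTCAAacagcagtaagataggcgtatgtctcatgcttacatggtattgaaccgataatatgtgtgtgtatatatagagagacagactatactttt
FOX1: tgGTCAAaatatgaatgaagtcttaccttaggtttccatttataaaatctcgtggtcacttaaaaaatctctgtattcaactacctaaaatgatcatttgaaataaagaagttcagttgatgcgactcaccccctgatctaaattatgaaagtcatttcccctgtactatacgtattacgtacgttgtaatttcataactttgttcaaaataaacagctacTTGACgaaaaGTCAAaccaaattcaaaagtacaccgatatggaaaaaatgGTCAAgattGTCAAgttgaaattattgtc

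The core was found 2 times before CYP71A12, 2 times before CYP71A13, 3 times before CYP82C2 and 5 times before FOX1, and not in the PAD3 window. Of 27443 windows of 300 bases before annotated genes, 50.4% held it at least once on either strand, 17.9% at least 2 times and 5.07% at least 3 times. None of these windows was shortened. The 80 bases left out before CYP71A12 and CYP71A13 held no further core, so their counts also hold for 300 bases. The longer forms TTGACC or TTGACT, which contain the core, were found 3 times before CYP82C2 and 3 times before FOX1, as in 1.57% of all windows. A match is a description of the letters, not a binding site.

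CYP71A13, the P450 with the main part in camalexin synthesis, was low in most groups. Without bacteria its medians were 2.0 CPM (0 to 15.1) at high Pi and 1.54 CPM (0.288 to 20.6) at low Pi in Col-0. They were 1.33 CPM (0.150 to 8.21) and 2.29 CPM (0.319 to 7.97) in phr1, and 3.39 CPM (1.34 to 9.62) and 7.98 CPM (0.643 to 12.1) in phr1phl1. With SynCom at high Pi they were 2.70 CPM (0.453 to 4.67) in Col-0, 3.64 CPM (0.375 to 16.7) in phr1 and 10.8 CPM (0.221 to 21.0) in phr1phl1. The group with the highest median was phr1 at low Pi with SynCom, at 23.1 CPM (3.43 to 186). There followed phr1phl1 in the same condition with 16.3 CPM (3.56 to 83.4), while Col-0 had 8.71 CPM (1.01 to 46.8).

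For PAD3, which makes camalexin itself, the 3 groups at low Pi with SynCom had the 3 highest medians. They were 24.6 CPM (10.2 to 174) in phr1, 22.1 CPM (5.91 to 103.7) in phr1phl1 and 19.9 CPM (4.15 to 143) in Col-0. With SynCom at high Pi they were 7.32 CPM (3.40 to 18.0) in Col-0, 12.7 CPM (2.63 to 86.2) in phr1 and 8.52 CPM (0.447 to 36.4) in phr1phl1. Without bacteria the 6 medians ran from 6.98 CPM (2.87 to 29.0) in phr1 at low Pi to 16.2 CPM (3.01 to 30.9) in phr1phl1 at high Pi.

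CYP71A12, the copy known for its part in the cyanogenic branch, had medians of 23.3 CPM (18.2 to 118) in phr1, 22.7 CPM (8.70 to 90.6) in phr1phl1 and 12.1 CPM (7.36 to 25.3) in Col-0 with SynCom at low Pi. With SynCom at high Pi they were 14.4 CPM (0.615 to 63.4) in phr1, 10.3 CPM (1.34 to 31.1) in phr1phl1 and 6.49 CPM (0.680 to 31.3) in Col-0. Without bacteria they ran from 4.93 CPM (3.01 to 36.1) in phr1phl1 at high Pi to 11.7 CPM (3.30 to 77.2) in Col-0 at high Pi. The Col-0 median at low Pi with SynCom was thus next to that of Col-0 at high Pi without bacteria.

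FOX1, which oxidises the indole cyanohydrin to the carbonyl nitrile, had its highest medians at low Pi with SynCom in phr1phl1, 36.3 CPM (19.9 to 79.4), and phr1, 33.9 CPM (19.4 to 116). Its Col-0 medians ran from 13.2 CPM (7.48 to 29.9) at low Pi without bacteria to 23.6 CPM (5.53 to 37.8) at low Pi with SynCom. CYP82C2, which hydroxylates the carbonyl nitrile, reached a median of 12.8 CPM (4.08 to 120.2) in phr1 and 11 CPM (6.75 to 69.8) in phr1phl1 at low Pi with SynCom. Its highest median in Col-0 was 3.89 CPM (0.736 to 6.85), in the same condition, and its lowest 1.8 CPM (0 to 21.4), with SynCom at high Pi. The other phr1 groups had medians from 2.58 to 2.89 CPM. For each of the 5 genes all 11 pairs of neighbours in the order of medians overlapped in range. The phr1phl1 medians come from experiments C, D and E alone and the others from A to E. The order of medians is not adjusted for experiment.

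**Figure D1:**
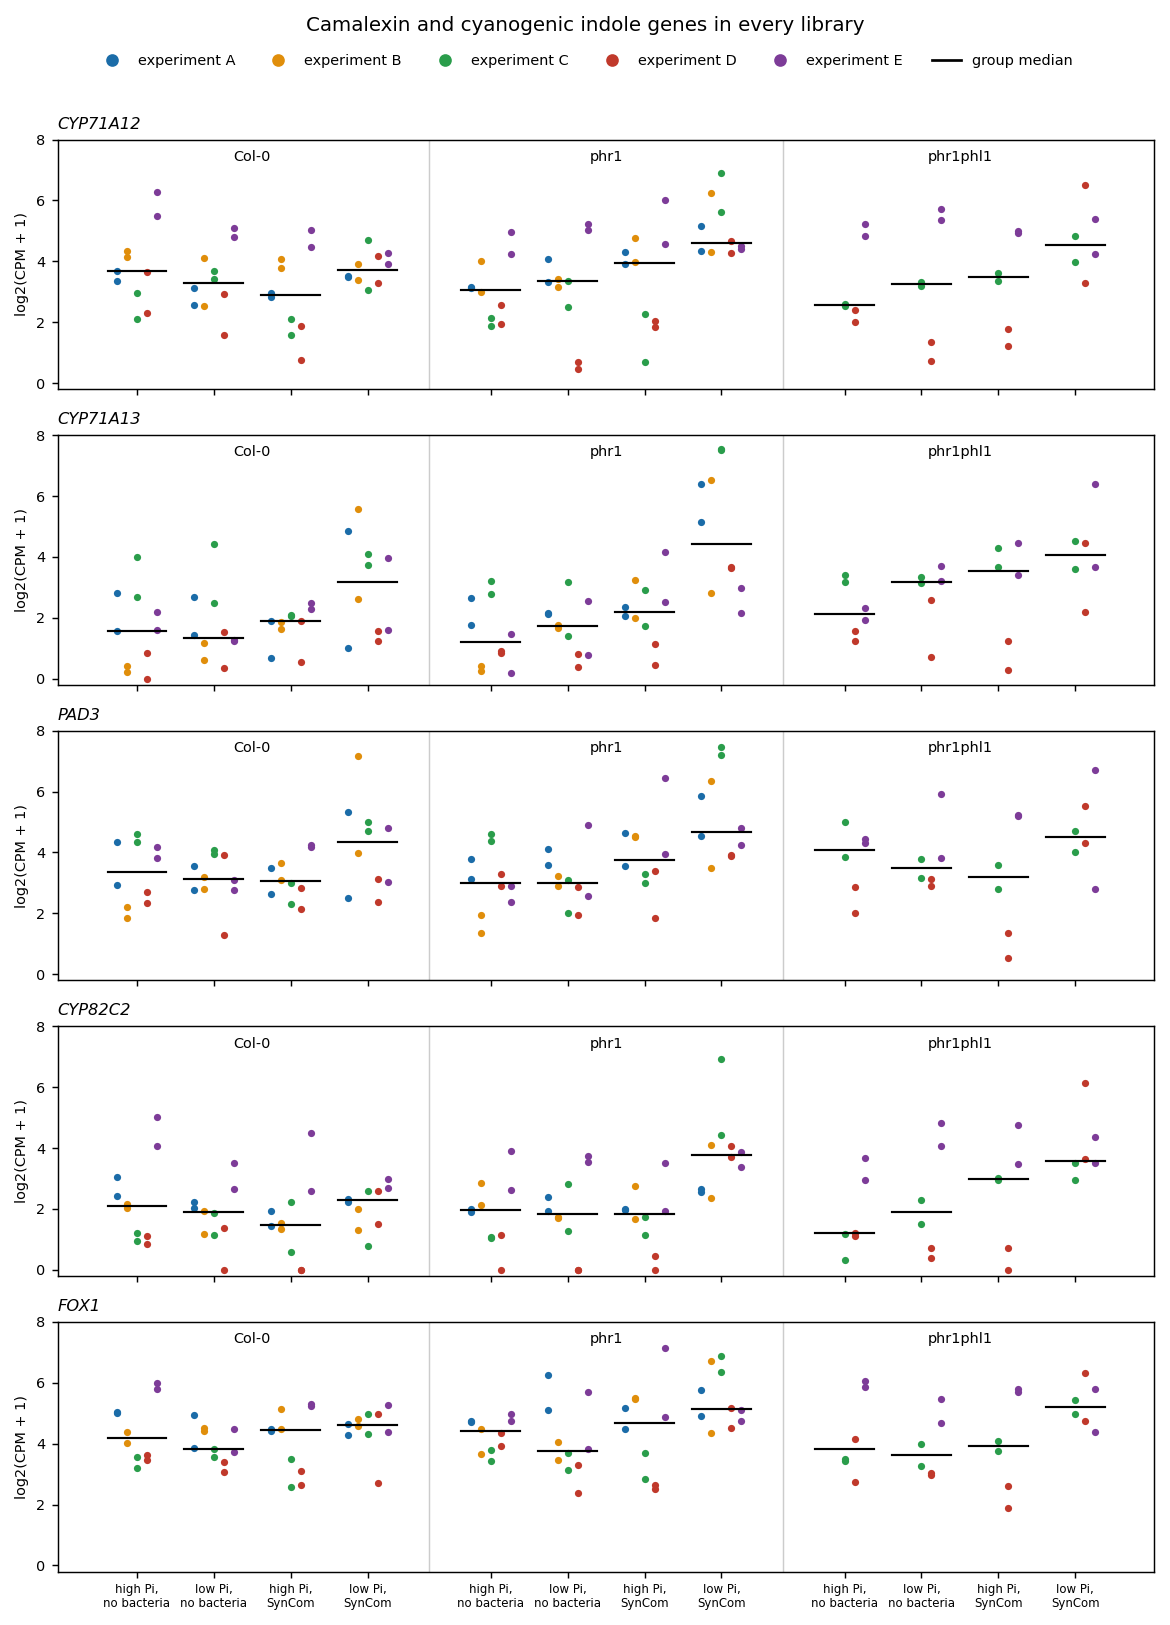
Level of each gene in every library, as log2(CPM + 1), for the 12 groups; each point is 1 library, coloured by experiment, and each line is a group median. The highest median is that of phr1 at low Pi with SynCom for 4 genes and that of phr1phl1 at low Pi with SynCom for FOX1, and the points of a group spread widely between experiments. The phr1phl1 points come from experiments C, D and E alone, and medians are not adjusted for experiment.

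At low Pi, the camalexin genes CYP71A13 and PAD3 were higher with SynCom than without bacteria in Col-0, and CYP71A12, CYP82C2 and FOX1 were not called. These were 2 of the 5 genes, in a comparison in which 24.4% of all genes tested were called higher. The 10 CYP71A13 libraries with SynCom included A1 at 28.1 CPM and B2 at 46.8 CPM, the 2 of 10 above the highest library without bacteria, at 20.6 CPM. The log2 fold change of CYP71A13 was 2.05 ± 0.54 (SE, 10 against 10 libraries, adjusted p = 0.00112, edgeR's quasi-likelihood test with Benjamini-Hochberg adjustment). For PAD3 5 of 10 SynCom libraries lay above the highest without bacteria, and the log2 fold change was 1.77 ± 0.50 (adjusted p = 0.00282). The ranges overlapped for both. CYP71A12 differed by 0.37 ± 0.43 (adjusted p = 0.509), CYP82C2 by 0.22 ± 0.59 (adjusted p = 0.786) and FOX1 by 0.61 ± 0.37 (adjusted p = 0.183). Without library B2 the PAD3 value was 0.90 (adjusted p = 0.12) and that of CYP71A13 1.41 (adjusted p = 0.0266). Without experiment B neither passed, at 0.89 (adjusted p = 0.179) for PAD3 and 1.27 (adjusted p = 0.0634) for CYP71A13.

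In phr1 all 5 genes were higher with SynCom at low Pi, where 15.0% of all genes were called higher. CYP71A13 rose most, by 4.21 ± 0.54 (log2 fold change ± SE, adjusted p = 7.63e-10, edgeR). Of its SynCom libraries 7 of 10 lay above the highest library without bacteria, at 7.97 CPM, and the highest were C1 and C2 at 186 and 183 CPM. PAD3 rose by 2.45 ± 0.50 (adjusted p = 7.13e-05), with the same libraries highest at 147 and 174 CPM. CYP71A12 rose by 2.14 ± 0.42 (adjusted p = 2.98e-05), and 8 of 10 libraries without bacteria lay below the lowest with SynCom, at 18.2 CPM. The others were E1 and E2 at 36.2 and 31.9 CPM. CYP82C2 rose by 2.64 ± 0.51 (adjusted p = 3.02e-05) and FOX1 by 1.51 ± 0.37 (adjusted p = 0.000877). Ranges overlapped for all 5. Without experiment C the value of FOX1 was 0.80 and did not pass (adjusted p = 0.165), while the other 4 passed.

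In phr1phl1, 4 of the 5 genes were called higher with SynCom at low Pi, against 8.30% of all genes. The 6 CYP82C2 libraries with SynCom held 6.75, 10.5, 11.5, 69.8, 10.5 and 19.6 CPM in C1, C2, D1, D2, E1 and E2. Library D2 was the highest, and the ranges overlapped. The log2 fold change was 2.47 ± 0.69 for CYP82C2 (6 against 6 libraries, adjusted p = 0.0084, edgeR) and 1.77 ± 0.50 for FOX1 (adjusted p = 0.00979). CYP71A12 rose by 1.91 ± 0.57 (adjusted p = 0.0139) and CYP71A13 by 2.21 ± 0.70 (adjusted p = 0.0231). Without library D2 0 of the 5 passed, with CYP82C2 at 0.96 (adjusted p = 0.412) and CYP71A13 at 1.88 (adjusted p = 0.0874). In limma-voom 0 passed. PAD3 had 1.46 ± 0.67 (adjusted p = 0.136). Its highest library without bacteria was E2, at 59.3 CPM, and without the 4 libraries that stood apart, E2 among them, it passed at 1.94 (adjusted p = 0.0484).

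The median log2 fold change of the 5 genes with SynCom at low Pi was 0.61 in Col-0, 2.45 in phr1 and 1.91 in phr1phl1. Over all genes tested the medians were 0.05, 0.01 and 0.01.

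**Figure D2:**
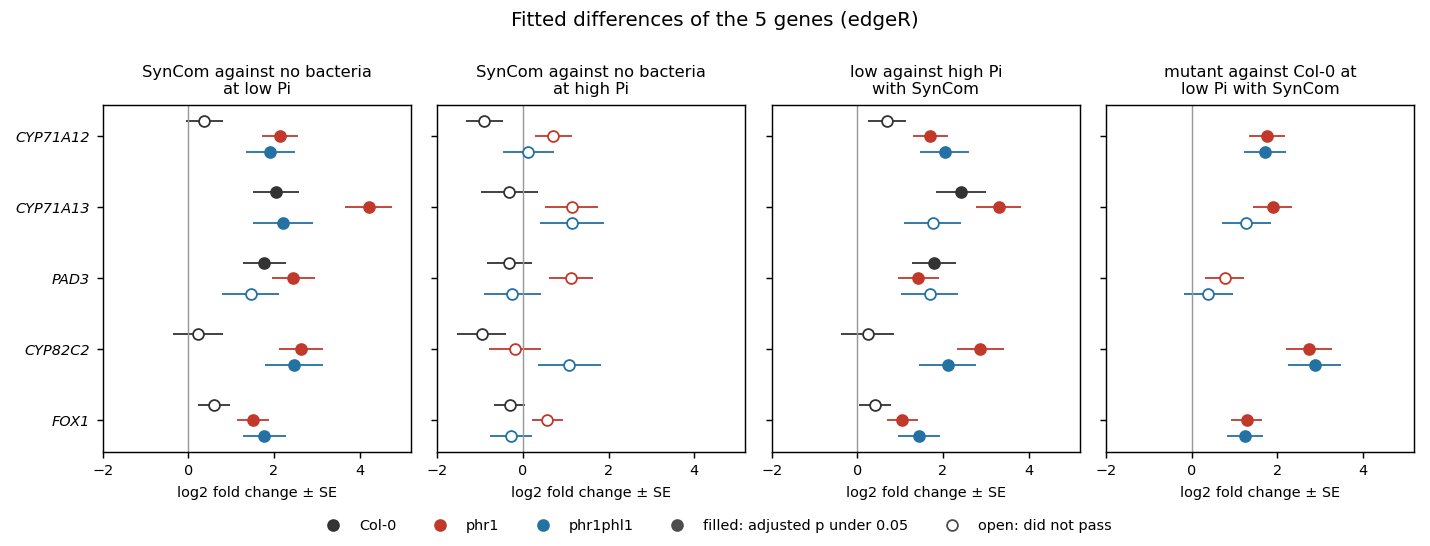
Log2 fold changes ± SE from edgeR for the 5 genes in 4 sets of comparisons, coloured by genotype; filled points passed an adjusted p of 0.05 and open points did not. With SynCom at low Pi the phr1 points run from 1.51 to 4.21, whereas with SynCom at high Pi no point passed.

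At high Pi, none of the 5 genes was called between SynCom and no bacteria in edgeR, DESeq2 or limma-voom. In Col-0 the log2 fold changes ran from -0.96 to -0.31, all negative, and 1 gene, CYP71A12, had an unadjusted p under 0.05 (-0.90 ± 0.43, adjusted p = 0.315). It passed as lower when only these groups were fitted (-0.91, adjusted p = 0.00563). In phr1 the values ran from -0.19 to 1.14, with 1 gene, PAD3, at an unadjusted p under 0.05 (1.13 ± 0.52, adjusted p = 0.248). In phr1phl1 they ran from -0.28 to 1.15, with 0 such genes. Of all genes 4.11% were called in Col-0, 5.13% in phr1 and 2.40% in phr1phl1.

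Whether the SynCom effect differed between low and high Pi was tested as an interaction. In Col-0 it passed for CYP71A13 (2.36 ± 0.85 on the log2 scale, adjusted p = 0.0272) and PAD3 (2.08 ± 0.73, adjusted p = 0.0219), 2 of 5 genes where 16.0% of all genes were called higher. CYP71A12 had 1.27 ± 0.61 (adjusted p = 0.106) and passed in DESeq2 (1.63, adjusted p = 0.0341) and with only these groups fitted (1.32, adjusted p = 0.0352). Neither CYP71A13 nor PAD3 passed without library B2 of Col-0 at low Pi with SynCom (1.67 and 1.14, adjusted p = 0.128 and 0.211). In phr1 it passed for CYP71A13 (3.07 ± 0.84, adjusted p = 0.015) and CYP82C2 (2.83 ± 0.79, adjusted p = 0.0173), against 3.68% of all genes. Without library C2 of phr1 at low Pi with SynCom CYP82C2 did not pass (1.78, adjusted p = 0.123). In phr1phl1 no gene passed in edgeR and 2 had an unadjusted p under 0.05, the highest value being 2.05 ± 0.70 for FOX1 (adjusted p = 0.0672). There edgeR called 4.39% of all genes. Of the 5, DESeq2 called 1 and limma-voom 0. No gene passed in limma-voom in any genotype, nor when the 2 libraries of a group and experiment were summed.

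Without bacteria, none of the 5 genes was called between low and high Pi in edgeR, DESeq2 or limma-voom. The log2 fold changes ran from -0.94 to 0.06 in Col-0, from 0.05 to 0.28 in phr1 and from -0.60 to 0.73 in phr1phl1. No gene had an unadjusted p under 0.05 in any genotype. Of all genes 0.0264%, 0% and 0% were called in Col-0, phr1 and phr1phl1.

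With SynCom, CYP71A13 and PAD3 were called higher at low than at high Pi in Col-0. CYP71A13 rose by 2.42 ± 0.59 (log2 fold change ± SE, adjusted p = 0.000378, edgeR) and 6 of 10 libraries at low Pi lay above the highest at high Pi. PAD3 rose by 1.79 ± 0.51 (adjusted p = 0.00231) and 5 of 10 did. These were 2 of 5 genes, against 27.5% of all genes called higher. Without library B2 PAD3 did not pass (0.90, adjusted p = 0.122). By mean log2 CPM within single experiments, CYP71A13 was higher at low Pi in 5 of 5 (0.32 to 2.54) and PAD3 in 4 of 5 (-0.31 to 2.3). CYP71A12 had 0.70 ± 0.45 (adjusted p = 0.194) but passed in DESeq2 (1.12, adjusted p = 0.0273) and in edgeR without experiment E (1.08, adjusted p = 0.0454). The comparison shares its libraries at low Pi with the one between SynCom and no bacteria.

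In phr1 with SynCom all 5 genes were higher at low than at high Pi, against 13.4% of all genes. The values ran from 1.05 ± 0.36 for FOX1 (log2 fold change ± SE, adjusted p = 0.023, edgeR) to 3.30 ± 0.52 for CYP71A13 (adjusted p = 4.83e-07). CYP82C2 rose by 2.87 ± 0.54 (adjusted p = 2.74e-05), CYP71A12 by 1.71 ± 0.41 (adjusted p = 0.001) and PAD3 by 1.42 ± 0.48 (adjusted p = 0.0205). For CYP82C2 8 of 10 libraries at high Pi lay below the lowest at low Pi, while for FOX1 and PAD3 library E1 at high Pi held 139.9 and 86.2 CPM. FOX1 and PAD3 did not pass without library C2 of phr1 at low Pi (0.74 and 1.14, adjusted p = 0.119 and 0.071). By mean log2 CPM within single experiments, CYP82C2 was higher at low Pi in 5 of 5. CYP71A12, CYP71A13, PAD3 and FOX1 were each higher in 4 of 5. In the remaining experiment of each they were lower, by -0.84, -0.83, -0.68 and -1.09.

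In phr1phl1 with SynCom, CYP71A12 (2.04 ± 0.57, adjusted p = 0.00669), CYP82C2 (2.11 ± 0.67, adjusted p = 0.0168) and FOX1 (1.45 ± 0.49, adjusted p = 0.0266) were higher at low than at high Pi, against 10.5% of all genes. CYP71A13 had 1.76 ± 0.67 and PAD3 1.69 ± 0.66 (adjusted p = 0.05002 and 0.0597). Without library D2 at low Pi 0 of the 5 passed, and CYP82C2 had 0.60 (adjusted p = 0.585). By mean log2 CPM within single experiments, CYP71A13 was higher at low Pi in 3 of 3 (0.086 to 3.09). The differences ran from -0.15 to 3.67 for CYP71A12, -0.19 to 5.38 for CYP82C2, -0.67 to 3.46 for FOX1 and -0.50 to 4.49 for PAD3. Each of these was higher in 2 of 3.

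At low Pi with SynCom, 4 of the 5 genes were higher in phr1 than in Col-0, against 12.2% of all genes. For CYP82C2 the Col-0 libraries held 0.736 to 6.85 CPM and 7 of 10 phr1 libraries lay above all of them. Its log2 fold change was 2.73 ± 0.53 (SE, 10 against 10 libraries, adjusted p = 6.07e-05, edgeR). CYP71A13 was higher by 1.89 ± 0.45 (adjusted p = 0.00109), CYP71A12 by 1.75 ± 0.42 (adjusted p = 0.001) and FOX1 by 1.29 ± 0.36 (adjusted p = 0.00559). PAD3 had 0.77 ± 0.46 (adjusted p = 0.219), but without the Col-0 library B2, at 143 CPM, it passed at 1.61 (adjusted p = 0.00565). Without experiment C, CYP71A13 and FOX1 did not pass (1.27 and 0.84, adjusted p = 0.0583 and 0.134). CYP82C2 passed in each of the 20 alternatives run, with values from 1.47 to 3.55.

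In phr1phl1 3 of the 5 genes were higher than in Col-0 with SynCom at low Pi, against 17.4% of all genes. CYP82C2 was higher by 2.87 ± 0.62 (log2 fold change ± SE, 6 against 10 libraries, adjusted p = 0.000139, edgeR), and 5 of 6 of its libraries lay above the highest of Col-0. CYP71A12 was higher by 1.71 ± 0.49 (adjusted p = 0.00416) and FOX1 by 1.25 ± 0.42 (adjusted p = 0.0153). CYP71A13 had 1.27 ± 0.57 (adjusted p = 0.0724) and PAD3 0.39 ± 0.57 (adjusted p = 0.629). The Col-0 libraries included those of experiments A and B, which held no phr1phl1. With experiments C, D and E alone, CYP82C2 and CYP71A13 passed as higher (adjusted p = 0.002497 and 0.01096, edgeR). There CYP71A12 and FOX1 did not pass (1.476 and 1.02, adjusted p = 0.07003 and 0.1161), nor did PAD3 (adjusted p = 0.1138). Without library D2 of phr1phl1 none passed, CYP82C2 having 1.36 (adjusted p = 0.0798). Without library B2 of Col-0 CYP71A13 passed at 1.81 (adjusted p = 0.00742).

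Under the other conditions none of the 5 genes was called between a mutant and Col-0 in edgeR, DESeq2 or limma-voom. With SynCom at high Pi the log2 fold changes ran from 0.10 to 1.14 in phr1 and from 0.21 to 1.93 in phr1phl1. In each mutant 1 gene had an unadjusted p under 0.05, PAD3 in phr1 (1.14 ± 0.52, adjusted p = 1) and CYP71A13 in phr1phl1 (1.93 ± 0.73, adjusted p = 0.377). Without bacteria, over both Pi levels, the values ran from -0.44 to 0.07 in phr1 and from -0.24 to 0.78 in phr1phl1, and 0 genes had an unadjusted p under 0.05. Of all genes 0.122% and 0.127% were called in phr1 and phr1phl1 with SynCom at high Pi, and 0.106% and 0.571% without bacteria.

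Whether the SynCom effect at low Pi differed between a mutant and Col-0 was tested as an interaction, and none of the 5 genes passed in edgeR. In phr1, where 3 genes had an unadjusted p under 0.05, the values were 2.41 ± 0.79 for CYP82C2 (adjusted p = 0.0669), 1.77 ± 0.60 for CYP71A12 (adjusted p = 0.0754) and 2.16 ± 0.77 for CYP71A13 (adjusted p = 0.0968). In phr1phl1, where 2 had one, CYP82C2 had 2.24 ± 0.91 (adjusted p = 0.0762) and CYP71A12 1.54 ± 0.71 (adjusted p = 0.121). Of all genes 3.20% and 15.9% were called by edgeR with all libraries, and the shares under the alternatives that follow are not given. DESeq2 called 1 of the 5 in phr1 and 1 in phr1phl1, CYP82C2 in both, and limma-voom 0 and 0. Without experiment E, 3 passed in phr1 and 3 in phr1phl1, with CYP82C2 at 2.71 and 3.70 (adjusted p = 0.0276 and 0.0101). Single libraries moved these calls too: without B2 of Col-0 CYP71A13 passed in phr1 (2.81, adjusted p = 0.0298), without C2 of phr1 CYP82C2 passed in phr1phl1 (2.13, adjusted p = 0.0492), and without D2 of phr1phl1 CYP71A12 and CYP82C2 passed in phr1 (adjusted p = 0.046 and 0.0342).

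Between the mutants no gene was called at low Pi with SynCom in edgeR, DESeq2 or limma-voom, in edgeR no unadjusted p was under 0.05, and 2.83% of all genes were called. The log2 fold change of phr1phl1 against phr1 was -0.04 (95% confidence interval -1.02 to 0.93) for CYP71A12 and -0.62 (95% confidence interval -1.74 to 0.50) for CYP71A13. It was -0.38 (95% confidence interval -1.5 to 0.73) for PAD3, 0.13 (95% confidence interval -0.95 to 1.22) for CYP82C2 and -0.04 (95% confidence interval -0.88 to 0.80) for FOX1.

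The response differed in size between experiments. For CYP71A13 SynCom at low Pi gave a higher mean log2 CPM in 5 of 5 experiments in Col-0 (differences 0.49 to 3.66), 5 of 5 in phr1 (1.11 to 5.46) and 3 of 3 in phr1phl1 (0.87 to 1.93). For PAD3 the counts were 5 of 5 (0.23 to 2.64), 5 of 5 (0.83 to 4.93) and 2 of 3 (-0.14 to 1.99), and for FOX1 5 of 5 (0.07 to 0.98), 4 of 5 (-0.35 to 3.27) and 3 of 3 (0.02 to 2.63). For CYP71A12 and CYP82C2 experiments D and E lay far apart. In experiment E CYP71A12 differed by -0.89 in Col-0, -0.68 in phr1 and -0.73 in phr1phl1, and in experiment D by 1.61, 4.54 and 4.30. CYP82C2 differed by -0.27, -0.01 and -0.51 in experiment E and by 1.92, 5.02 and 5.01 in experiment D.

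The libraries without bacteria differed between these experiments as well. For CYP71A12 the 12 libraries without bacteria had a median of 34.8 CPM (17.9 to 77.2) in experiment E and 2.93 CPM (0.370 to 11.7) in experiment D, with no overlap. CYP82C2 had 12.1 CPM (5.21 to 31.5) and 0.725 CPM (0 to 1.58), also without overlap. For CYP71A13 the medians were 2.41 CPM (0.150 to 12.1) and 0.811 CPM (0 to 4.97), and the ranges overlapped. The part of this level in the smaller response of experiment E was not tested. At low Pi with SynCom CYP82C2 was higher in phr1 than in Col-0 in 5 of 5 experiments (0.36 to 4.32) and in phr1phl1 in 3 of 3 (1.17 to 3.03). CYP71A12 was higher in 5 of 5 (0.39 to 2.43) and 3 of 3 (0.54 to 1.18), and FOX1 in 5 of 5 (0.099 to 2.0) and 3 of 3 (0.27 to 1.76). CYP71A13 was higher in 4 of 5 (-0.20 to 3.67) and 3 of 3 (0.16 to 2.40), and PAD3 in 4 of 5 (-0.66 to 2.51) and 2 of 3 (-0.50 to 2.28).

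**Figure D3:**
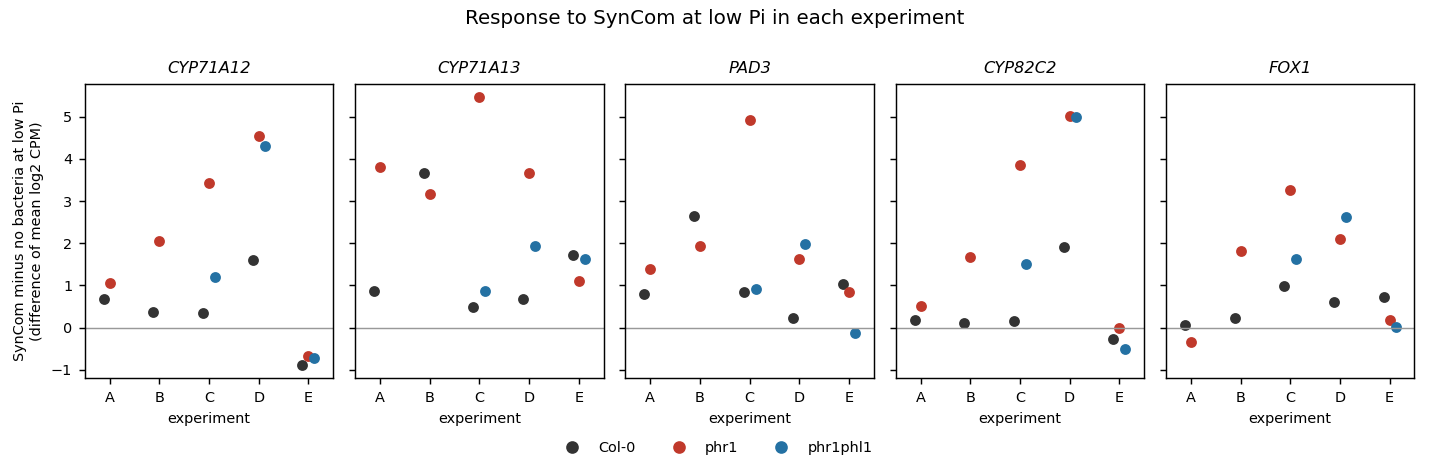
SynCom minus no bacteria at low Pi within each experiment, as the difference of mean log2 CPM over 2 libraries per group, for the 5 genes and 3 genotypes. In experiment E the CYP71A12 points of all 3 genotypes lie below 0, from -0.89 to -0.68, and in experiment D the points of both mutants reach 4.54 and 4.30.

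The 2 libraries of a group in an experiment differed more for these genes than for most. Over 52 such pairs the median absolute log2 ratio was 0.98 for CYP71A13, 0.76 for CYP82C2, 0.73 for PAD3, 0.59 for CYP71A12 and 0.52 for FOX1, against a median of 0.25 over all genes. In Col-0 with SynCom at low Pi CYP71A13 held 28.1 and 1.01 CPM in experiment A and 5.13 and 46.8 CPM in experiment B. PAD3 held 39.6 and 4.75 CPM in A and 14.7 and 143 CPM in B. The same library was thus the higher one for both genes in both experiments. CYP82C2 in those libraries held 4.04 and 3.74 CPM in A and 2.98 and 1.47 CPM in B.

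CYP71A13 and PAD3 were higher in the same library of a pair in 43 of 52 pairs (Pearson's r of the differences = 0.795), and CYP71A12 and CYP82C2 in 36 (r = 0.672). CYP71A13 and CYP82C2 went the same way in 23 (r = 0.171). The similar copies CYP71A12 and CYP71A13 did so in 32 (r = 0.473), and FOX1 went with CYP71A12 in 38 (r = 0.666) and with PAD3 in 41 (r = 0.660). The remaining gene pairs were compared as deviations of log2 CPM from the mean of the 2 libraries. There r was 0.521 for FOX1 with CYP71A13 and 0.448 for FOX1 with CYP82C2. It was 0.43 for CYP71A12 with PAD3 and 0.220 for PAD3 with CYP82C2. These are descriptions of values that share libraries and scaling.

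**Figure D4:**
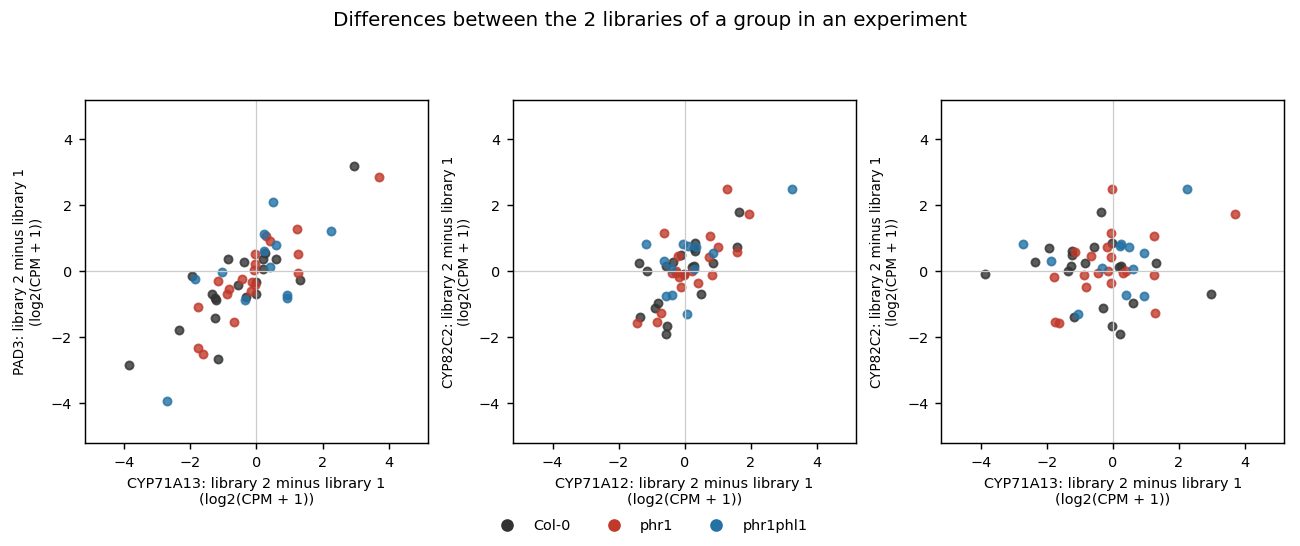
Difference between library 2 and library 1 of a group within an experiment, in log2(CPM + 1), for 3 pairs of genes; each point is 1 of 52 pairs of libraries, coloured by genotype. PAD3 goes with CYP71A13 (r = 0.795) and CYP82C2 with CYP71A12 (r = 0.672), whereas CYP82C2 against CYP71A13 is a scatter (r = 0.171).

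Likeness over all libraries was measured on log2 CPM after each experiment's mean was subtracted. The genes most like CYP71A13 were PAD3 (Pearson's r = 0.841), IGPS (r = 0.833), an enzyme of tryptophan synthesis, and the receptor-like protein gene RLP34 (r = 0.824). Those most like PAD3 were CYP71A13, the glutathione transferase gene GSTF7 (r = 0.832) and RLP23 (r = 0.821), a receptor-like protein gene. CYP71A12 was closest to CCOAMT (AT1G67980, r = 0.848), to AT1G26390 (r = 0.831), a close relative of FOX1, and to PCR2 (r = 0.827). CYP82C2 was closest to the proteinase inhibitor genes UPI (r = 0.834) and KTI1 (r = 0.809) and to CYP71A12 (r = 0.808). FOX1 was closest to the transcription factor gene WRKY6 (r = 0.859), to AT5G67340 (r = 0.847) and to AT1G26420 (r = 0.847), another of its relatives. These libraries share groups and differ in depth.

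Tryptophan synthesis supplies both branches. With SynCom at low Pi, 6 of its 7 genes listed were called higher in Col-0 and 0 lower, with a median log2 fold change of 0.67. In phr1 7 were called higher (median 1.00) and in phr1phl1 2 (median 0.55). Of all genes 24.4%, 15.0% and 8.30% were called higher in Col-0, phr1 and phr1phl1. IGPS, which forms the indole ring, rose by 1.01 ± 0.17, 1.2 ± 0.17 and 0.68 ± 0.23 in Col-0, phr1 and phr1phl1 (adjusted p = 1.25e-06, 2.71e-08 and 0.0322). TSA1, a tryptophan synthase subunit, rose by 0.90 ± 0.17 in Col-0 and 1.16 ± 0.17 in phr1 (adjusted p = 1.44e-05 and 1.06e-07) and had 0.43 ± 0.23 in phr1phl1 (adjusted p = 0.209). At low Pi with SynCom 1 of 7 was called higher in each mutant than in Col-0, a share near the 12.2% and 17.4% of all genes in phr1 and phr1phl1. It was PAT1, by 0.50 ± 0.14 in phr1 and 0.56 ± 0.17 in phr1phl1 (adjusted p = 0.00635 and 0.0063).

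Of 8 genes for the acetaldoxime and thiol steps, 4 were called higher and 2 lower with SynCom at low Pi in Col-0, 5 and 2 in phr1, and 1 and 0 in phr1phl1. Of all genes 24.4%, 15.0% and 8.30% were called higher and 19.6%, 12.2% and 5.66% lower. CYP79B2, which makes the oxime, rose by 2.41 ± 0.27 in Col-0, 2.36 ± 0.27 in phr1 and 1.72 ± 0.35 in phr1phl1 (adjusted p = 2.57e-12, 1.11e-11 and 0.000229). At low Pi with SynCom it had -0.24 ± 0.25 in phr1 and -0.63 ± 0.31 in phr1phl1 against Col-0 (adjusted p = 0.499 and 0.101). GSTF6, a glutathione transferase of camalexin synthesis, had 0.16 ± 0.33 with SynCom in Col-0 (adjusted p = 0.724) and rose by 1.37 ± 0.33 in phr1 (adjusted p = 0.000955). With SynCom at low Pi in phr1phl1 it was not called. It was higher than in Col-0 with SynCom at low Pi by 1.08 ± 0.33 in phr1 and 1.18 ± 0.38 in phr1phl1 (adjusted p = 0.0107 and 0.00986). Its reads may be shared with close relatives, which was not measured. The genes called lower in Col-0 and phr1 were ATR1, a P450 reductase, and GGP3, a gamma-glutamyl peptidase, with -0.48 and -0.49 in Col-0.

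Among 11 regulators 6 were called higher and 1 lower with SynCom at low Pi in Col-0, 7 and 0 in phr1, and 3 and 0 in phr1phl1. The shares of all genes were 24.4%, 15.0% and 8.30% higher and 19.6%, 12.2% and 5.66% lower. The mRNA of WRKY33 was not called in any of them, with 0.07 ± 0.38, 0.46 ± 0.38 and 0.27 ± 0.50 (adjusted p = 0.889, 0.395 and 0.777). ANAC042, a NAC factor that takes part in camalexin induction, rose by 1.31 ± 0.38 in Col-0 and 2.76 ± 0.36 in phr1 (adjusted p = 0.00374 and 1.67e-09) and had 1.25 ± 0.52 in phr1phl1 (adjusted p = 0.0935). At low Pi with SynCom it was higher in phr1 than in Col-0 by 1.25 ± 0.31 (adjusted p = 0.00148) and had 0.67 ± 0.42 in phr1phl1 (adjusted p = 0.208). MYB34, an activator of indole glucosinolate genes, rose by 1.24 ± 0.19 in Col-0 and 0.80 ± 0.19 in phr1 (adjusted p = 4.65e-08 and 0.000493). It was lower at low Pi with SynCom in phr1 (-0.46 ± 0.18, adjusted p = 0.0488) and phr1phl1 (-1.07 ± 0.23, adjusted p = 0.000134) than in Col-0. Of 3 transporters 1 was called higher with SynCom in Col-0, 1 in phr1 and 0 in phr1phl1, against the same 24.4%, 15.0% and 8.30% of all genes. It was PDR12, known for camalexin export, with 1.29 ± 0.47 and 2.34 ± 0.45 (adjusted p = 0.0208 and 2.39e-05).

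**Figure D5:**
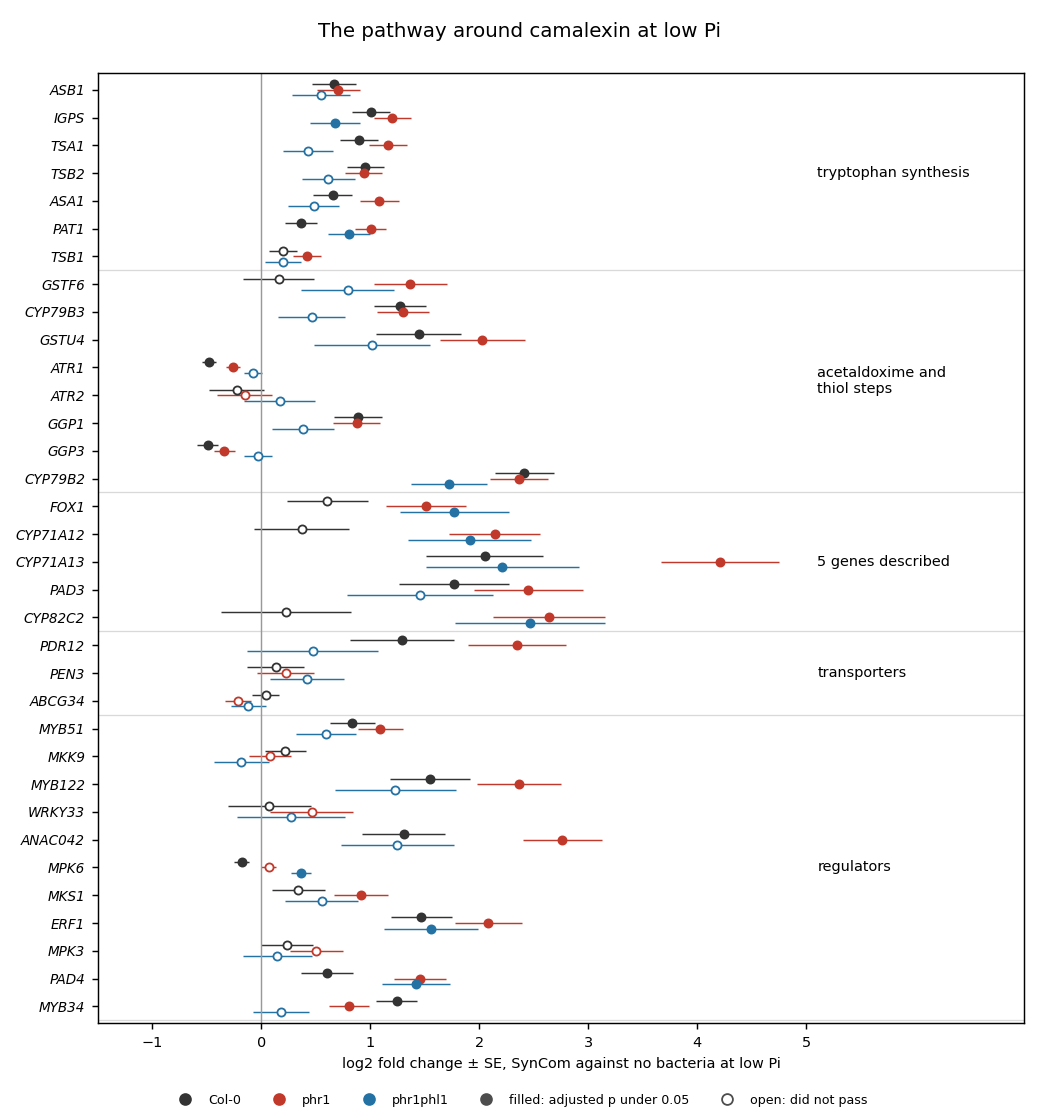
Log2 fold change ± SE of SynCom against no bacteria at low Pi for tryptophan synthesis, the acetaldoxime and thiol steps, the 5 genes, transporters and regulators, coloured by genotype; filled points passed an adjusted p of 0.05 in edgeR. CYP79B2 is filled in all 3 genotypes, from 1.72 to 2.41, whereas CYP71A12 and CYP82C2 are open in Col-0, at 0.37 and 0.22, and filled in both mutants.

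Of 7 close relatives 4 were left by the filter. AT1G26390, a relative of FOX1, went from a median of 11.7 CPM (3.74 to 35.7) without bacteria to 10.7 CPM (2.94 to 39.6) with SynCom at low Pi in Col-0, and from 12.4 CPM (0.739 to 28.5) to 48.2 CPM (12.2 to 213) in phr1. The log2 fold change was -0.11 ± 0.50 in Col-0, 2.96 ± 0.49 in phr1 and 2.61 ± 0.66 in phr1phl1 (adjusted p = 0.879, 1.11e-06 and 0.00358). Unlike the 5 genes in edgeR, it passed the genotype by SynCom interaction, at 3.06 ± 0.69 in phr1 and 2.72 ± 0.82 in phr1phl1 (adjusted p = 0.00533 and 0.0157). AT1G26410 and AT1G26420, also relatives of FOX1, rose in Col-0 too, by 1.47 ± 0.42 and 0.83 ± 0.31 (adjusted p = 0.00295 and 0.0245). Both were also called higher in phr1 and phr1phl1. In phr1 neither passed the interaction. In phr1phl1 AT1G26420 did (1.58 ± 0.54, adjusted p = 0.0317), as did CYP82C4 (adjusted p = 1.23e-06). CYP82C4, the near copy of CYP82C2, was at 0 in all 10 Col-0 libraries at low Pi with SynCom and had a median of 2.99 CPM (0 to 23.4) without bacteria. In phr1 its medians were 0 CPM (0 to 1.56) with SynCom and 7.91 CPM (0 to 31.1) without. In Col-0 and phr1 it was called lower with SynCom (adjusted p = 8.06e-15 and 5.34e-13), whereas in phr1phl1 it had -0.04 ± 0.61 (adjusted p = 0.978), with medians of 0 CPM (0 to 23.3) with SynCom and 0.397 CPM (0 to 18.1) without. Like CYP82C2 it was called higher in phr1 and phr1phl1 than in Col-0 with SynCom at low Pi (adjusted p = 0.00748 and 1.7e-11), although its median was 0 in all 3 groups.

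Markers of shoot and root moved in some of the same comparisons, and their part in the results was not tested. The summed level of 8 photosynthesis genes, none at 0 in any library, had medians at low Pi of 43696 CPM (34834 to 49462) without bacteria and 27029 CPM (1465 to 41528) with SynCom in Col-0. In phr1 they were 43118 CPM (29000 to 52000) and 28094 CPM (19436 to 38815), and in phr1phl1 37822 CPM (32254 to 41981) and 32094 CPM (26371 to 35920). Of these markers 7, 4 and 0 were called lower with SynCom in Col-0, phr1 and phr1phl1, where 19.6%, 12.2% and 5.66% of all genes were, and 0 were called between either mutant and Col-0 at low Pi with SynCom. The summed level of 8 root markers had medians of 1330 CPM (968 to 2182) and 1956 CPM (874 to 2688) in Col-0, 1453 CPM (666 to 2398) and 1361 CPM (864 to 2809) in phr1, and 1174 CPM (819.9 to 1491) and 1133 CPM (929.6 to 1672) in phr1phl1. Of the 7 left by the filter 5 were lower in phr1 and 4 in phr1phl1 than in Col-0 with SynCom at low Pi, against 14.1% and 19.0% of all genes. ESB1, RHD6, COBL9 and EXP7 were at 0 in 22, 8, 17 and 6 libraries.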

How the data were processed

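Whole seedlings were measured in 12 groups of libraries, 40 of Col-0, 40 of phr1 and 24 of phr1phl1. The deposited values were raw counts per gene, made by the authors. The submitters' processing notes name CASAVA 1.8, cutadapt 1.3, TopHat2 2.1.1, HTSeq 0.6.1p1 and the build TAIR10, with no role or setting for any of them. TAIR10.1 of RefSeq was used for names, positions and sequences of the genes.

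Of 27206 loci, 18926 passed filterByExpr in edgeR 4.0.16 (R 4.3.3; minimum count of 10, 12 groups). Counts were scaled by TMM and fitted in 1 quasi-likelihood model with group and experiment as terms. A total of 24 contrasts were tested, each adjusted over all genes (Benjamini-Hochberg, threshold 0.05). Levels are CPM from the same library sizes, and likeness used log2 CPM with a prior count of 2. The script was tested on simulated counts, for low against high Pi with SynCom in Col-0. These counts were independent between libraries and held no differences between experiments, so the test did not cover either. DESeq2 1.42.0 and limma-voom (limma 3.58.1) were alternatives, with other filters, scaling, covariates and left-out libraries.

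The 5 genes and the lists were chosen with earlier results of these data known. The genes named as most like each member were the 3 with the highest Pearson's r over the libraries. Nothing says that the 2 libraries of a group in an experiment came from separate pools of seedlings, and the model takes them as independent. The p-values measure the spread left after the terms for group and experiment. That spread mixes differences of a group between experiments with those between its 2 libraries, which may be technical. Libraries of the same experiment deviated together (median r of deviations from group means 0.506, against -0.29 between experiments), equally for the same number (0.508) and the other number (0.505), so experiment is a term of the model. No 2 of 420 pairs of libraries within a group agreed within sampling noise (lowest chi-square per degree of freedom 1.92). Total counts per library limit the precision of genes at a few CPM.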

Additional observations from a re-analysis of the deposited data

Results flagged for a closer look

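Of 60 sets of libraries (5 genes in 12 groups), 16 had a highest library far from the nearest other by Dixon's criterion. Its chance rate of about 1 in 20 groups holds for values drawn from a single normal distribution. The CPM of a group came from experiments that differed in level, so the 16 cannot be set against that rate. Library E1 of phr1 at high Pi with SynCom was the farthest for 4 genes, with 63.4 CPM of CYP71A12, 16.7 CPM of CYP71A13, 86.2 CPM of PAD3 and 139.9 CPM of FOX1. Experiment E also held the far library of CYP82C2 in Col-0 at high Pi with SynCom (E1, 21.4 CPM), at high Pi without bacteria (E1, 31.5 CPM) and at low Pi without bacteria (E2, 10.5 CPM), and in phr1 at high Pi without bacteria (E1, 13.9 CPM). It held that of PAD3 without bacteria at low Pi in phr1 (E1, 29.0 CPM) and phr1phl1 (E2, 59.3 CPM), and of CYP71A13 in phr1phl1 at low Pi with SynCom (E1, 83.4 CPM). At low Pi with SynCom the others were CYP82C2 in phr1 (C2, 120.2 CPM) and phr1phl1 (D2, 69.8 CPM) and PAD3 in Col-0 (B2, 143 CPM). CYP71A13 without bacteria in Col-0 had C2 at high Pi (15.1 CPM) and C1 at low Pi (20.6 CPM).

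By the interaction test in edgeR, the SynCom effect was called different between low and high Pi for 4 combinations of gene and genotype. Of all genes 16.0% were called higher in this test in Col-0 and 3.68% in phr1. The log2 differences were 2.36 for CYP71A13 and 2.08 for PAD3 in Col-0, and 3.07 for CYP71A13 and 2.83 for CYP82C2 in phr1. None of the 4 passed in limma-voom. Without library B2 of Col-0 at low Pi with SynCom neither Col-0 value passed. Without library C2 of phr1 in that condition CYP82C2 did not pass.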

How the results depend on the processing

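Counts are of the 5 genes called at an adjusted p under 0.05. The share of all genes called under an alternative is not given, so a changed count cannot be set against it. With the replicate block of experiment and number, directions were as without it except for PAD3 between Pi levels in phr1phl1 without bacteria (0.00336, no call), and 1 call changed: CYP71A13 in phr1phl1 against Col-0 at low Pi with SynCom passed at 1.31 (adjusted p = 0.0499). The numbers carried no pairing beyond the experiment. In phr1 the count for SynCom at low Pi stayed between 4 and 5 of 5 in all alternatives. For the changes below the cause was not tested, apart from fewer libraries where some were left out.

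For SynCom at low Pi in Col-0 the count was 2, and 1 in limma-voom, 0 in experiments C, D and E alone, and 0 to 2 with 1 experiment or library left out. For SynCom at high Pi in Col-0 it was 0, and 1 with the groups of the contrast alone. For SynCom at low Pi in phr1phl1 it was 4, and 0 in limma-voom, with no experiment term and with 2 libraries summed, 2 with the groups alone, 0 to 4 with 1 experiment or library left out, and 5 without the 4 libraries that stood apart. For low against high Pi with SynCom in Col-0 it was 2, 3 in DESeq2, 0 in experiments C, D and E alone, and 1 to 3 with 1 left out. In phr1 it was 5, 4 in limma-voom and in C, D and E alone, 2 with no experiment term, 3 with libraries summed, 2 with the groups alone, and 2 to 5 with 1 left out. In phr1phl1 it was 3, 5 in DESeq2, 4 with RLE scaling, with the stricter filter and in C, D and E alone, 0 in limma-voom, with no experiment term, with libraries summed and with the groups alone, and 0 to 5 with 1 left out. There CYP82C2 ran from -0.042 (without experiment D) to 3.11 (without experiment E).

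For the difference between Pi levels in the SynCom effect (Pi by SynCom) the count in Col-0 was 2, 3 in DESeq2 and with the groups alone, 0 in limma-voom, with no experiment term, with libraries summed and in C, D and E alone, and 0 to 2 with 1 left out. In phr1 it was 2, 0 in limma-voom and with libraries summed, 1 with no experiment term and in C, D and E alone, and 0 to 5 with 1 left out. In phr1phl1 it was 0, 1 in DESeq2, and 0 to 2 with 1 left out. For phr1 against Col-0 at low Pi with SynCom it was 4, 2 with no experiment term and with the groups alone, 3 with libraries summed and in C, D and E alone, and 2 to 5 with 1 left out. For phr1phl1 against Col-0 it was 3, 4 with the replicate block, 1 in limma-voom, with no experiment term and with the groups alone, 2 with libraries summed and in C, D and E alone, and 0 to 4 with 1 left out. For the genotype by SynCom interactions it was 0, 1 in DESeq2 in both mutants, and 0 to 3 with 1 left out. The settings with B2 of Col-0, C2 of phr1, D2 of phr1phl1 or the 4 libraries that stood apart left out were chosen after seeing the data, as was edgeR's earlier quasi-likelihood fit. Depth limits genes at a few CPM, such as CYP82C2 and CYP71A13 without bacteria.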
